A study of Mus musculus with 57 samples.

Results

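Cell cycle and DNA replication genes were followed through liver macrophages and blood monocytes of mice with and without diet-induced steatohepatitis. The set held 42 genes of the 24941 in the deposited count table, taken by symbol from a list of known replication, G1/S and mitotic genes. Each gene was represented by its transcript with the highest total count. By role, 11 genes load the replicative helicase or work at forks, 4 supply deoxynucleotides, 5 are G1/S cyclins or transcription factors, 11 are mitotic cyclins, kinases and degradation factors, and 11 act on the spindle, centromere or chromosome. By phase, 19 were grouped as G1/S genes and 23 as G2/M genes, where Foxm1, a transcription factor of G2 genes, was counted with G2/M.

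A dividing cell first makes the helicase, polymerase and nucleotide enzymes that copy its DNA and then the kinases, kinesins and centromere proteins that separate the copies. E2F factors switch on the early genes as cyclin-dependent kinases release them from the retinoblastoma family, and MYBL2 and FOXM1 with the MuvB complex switch on the late genes. Kupffer cells, macrophages resident in the liver sinusoids, renew themselves by division, whereas circulating Ly6C-high monocytes have left the cycle and can enter the inflamed liver, where some take over the places of lost Kupffer cells.

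The RNA sequencing covered 57 libraries in 16 groups. The population set, from C57BL/6J mice, had 2 libraries in each of 6 groups. Of these, 5 came from mice on a NASH diet, a feeding model of nonalcoholic steatohepatitis: Tim4-positive F4/80-high Kupffer cells, Tim4-negative F4/80-high recruited macrophages of the Kupffer niche, CD11b-high Ly6C-low and CD11b-high Ly6C-high recruited macrophages, and blood Ly6C-high monocytes. The sixth was healthy Kupffer cells from mice on control diet. The time course held Tim4-positive F4/80-high Kupffer cells of C57BL/6J mice at 0 (3 libraries, control diet), 1 (2), 4 (2), 10 (3), 20 (3) and 30 weeks (4) of the NASH diet. Another set held Tim4-negative F4/80-high macrophages after 20 weeks of NASH diet from mice with floxed LXRa and LXRb, either with a Cre driven from Clec4f, a Kupffer cell gene (3 libraries), or without Cre (3). The last set was whole liver after 4 weeks of CDAHFD, another NASH diet, from mice labelled Clec4f-cre DTR-positive (12) or DTR-negative (10), where DTR is the diphtheria toxin receptor; the labels state no toxin treatment. The labels give no weeks of diet for the population set and do not say which libraries came from separate animals, so p-values measure the spread between libraries, which may be technical.

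Total counts ran between 2319382 and 26969509 per library. Flavopiridol, an inhibitor of cyclin-dependent kinases that blocks transcription, was present while the livers were perfused and digested, in all sorted liver groups. The summed level of 5 Kupffer cell markers (Clec4f, Vsig4, Timd4, Cd5l, Folr2) was 12288 to 14440 transcripts in 1000000, or TPM, in NASH Kupffer cells and 14534 to 15790 TPM in healthy ones, against 0.593 to 0.778 TPM in blood monocytes, whose 5 monocyte markers summed to 4820 to 6324 TPM. Nr1h3, which encodes LXRa, had 187, 451 and 298 counts in 1000000 (CPM) in the libraries labelled Cre-positive, against 247, 282 and 307 CPM in those labelled Cre-negative. Nr1h2, which encodes LXRb, had 61.1, 82.5 and 64.5 CPM in the libraries labelled Cre-positive, against 51.1, 33.3 and 36.6 CPM in those labelled Cre-negative. Over the whole gene, Nr1h3 overlapped between the labels and Nr1h2 lay above every Cre-negative library in each Cre-positive one, and which exons were floxed is not given in the sources used here, so both groups are named by their labels.

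Promoters of 4 genes are shown as examples, that of a replication gene and those of 3 genes used late in the cycle, as the 250 bases before the start in RefSeq on GRCm38.p6. Mcm5, a subunit of the replicative helicase, starts after chr8:75109259-75109508 on the plus strand. Ccnb2, the second B-type mitotic cyclin, lies on the minus strand with this window at chr9:70421555-70421804. Cdk1, the kinase that drives mitosis, has its window at chr10:69352913-69353162 on the minus strand. Top2a, the topoisomerase that untangles replicated DNA, has its window at chr11:99024190-99024439 on the minus strand. Capitals mark matches, on either strand, to CCAAT (the CCAAT box), TTTGAA (the CHR, a MuvB element) or GCGGGAA or GCGCGAA (an E2F-type site), and no 2 matches overlap in these windows.
Mcm5: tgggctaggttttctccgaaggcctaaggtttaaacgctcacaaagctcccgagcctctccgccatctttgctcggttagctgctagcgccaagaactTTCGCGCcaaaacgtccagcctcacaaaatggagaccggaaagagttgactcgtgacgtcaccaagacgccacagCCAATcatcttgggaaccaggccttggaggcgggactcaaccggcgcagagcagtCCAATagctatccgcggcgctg
Ccnb2: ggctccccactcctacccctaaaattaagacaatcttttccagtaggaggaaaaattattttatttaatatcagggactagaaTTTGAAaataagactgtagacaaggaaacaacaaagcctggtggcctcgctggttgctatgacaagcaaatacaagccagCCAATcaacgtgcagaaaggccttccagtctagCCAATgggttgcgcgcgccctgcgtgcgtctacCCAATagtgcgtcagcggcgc
Cdk1: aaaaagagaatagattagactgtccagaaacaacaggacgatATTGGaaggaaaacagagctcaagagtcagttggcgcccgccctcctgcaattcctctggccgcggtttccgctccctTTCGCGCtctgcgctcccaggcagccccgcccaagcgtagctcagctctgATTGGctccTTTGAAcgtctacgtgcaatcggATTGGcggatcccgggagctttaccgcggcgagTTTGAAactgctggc
Top2a: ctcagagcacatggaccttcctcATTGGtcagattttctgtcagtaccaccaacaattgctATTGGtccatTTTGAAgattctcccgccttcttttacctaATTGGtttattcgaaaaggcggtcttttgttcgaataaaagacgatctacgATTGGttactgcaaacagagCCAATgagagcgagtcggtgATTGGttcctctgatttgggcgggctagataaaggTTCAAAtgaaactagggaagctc

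Of the 42 genes, 34 had a promoter in the RefSeq table; Mcm4, Gins2, Foxm1, Ccne2, Ccna2, Aurkb, Kif20a and Tpx2 did not. TTTGAA was present in 7 of 18 G2/M promoters, 2 of 16 G1/S promoters and 16.0% of 32851 promoters in the table. CCAAT was present in 16 of 18 G2/M promoters, 10 of 16 G1/S promoters and 33.8% of all. The E2F-type letters were present in 1 of 18 G2/M promoters, that of Cdk1, in 6 of 16 G1/S promoters and in 5.00% of all. The late genes shown above all hold TTTGAA, so they do not stand for the G2/M genes as a whole. Of genes not shown, Ccnb1 had 2 CCAAT matches and no TTTGAA, and Rrm2 had 1 CCAAT match and no E2F-type match. These are matches of letters in the windows read, with no measurement of binding.

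Across the population set the cell cycle genes fell into a high block of 4 groups and a low block of 2. Summed over the 42 genes, the level was 621 and 548 TPM in Ly6C-low recruited macrophages, 591 and 567 TPM in Kupffer-niche recruited macrophages, 462 and 470 TPM in NASH Kupffer cells, 442 and 401 TPM in healthy Kupffer cells, 195 and 184 TPM in Ly6C-high recruited macrophages and 158 and 138 TPM in blood monocytes. By mean CPM, 23 of the 42 genes were highest in Kupffer-niche recruited macrophages, 13 in Ly6C-low recruited macrophages, 5 in NASH Kupffer cells (Gins2, Pcna, Tk1, E2f1 and Ccnb1) and 1, Kif23, in healthy Kupffer cells. No gene was highest in Ly6C-high recruited macrophages or blood monocytes, where 41 of the 42 were lowest; Ccne2 was lowest in healthy Kupffer cells. In bulk libraries fewer dividing cells and less RNA per cell cannot be told apart.

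**Figure D1:**
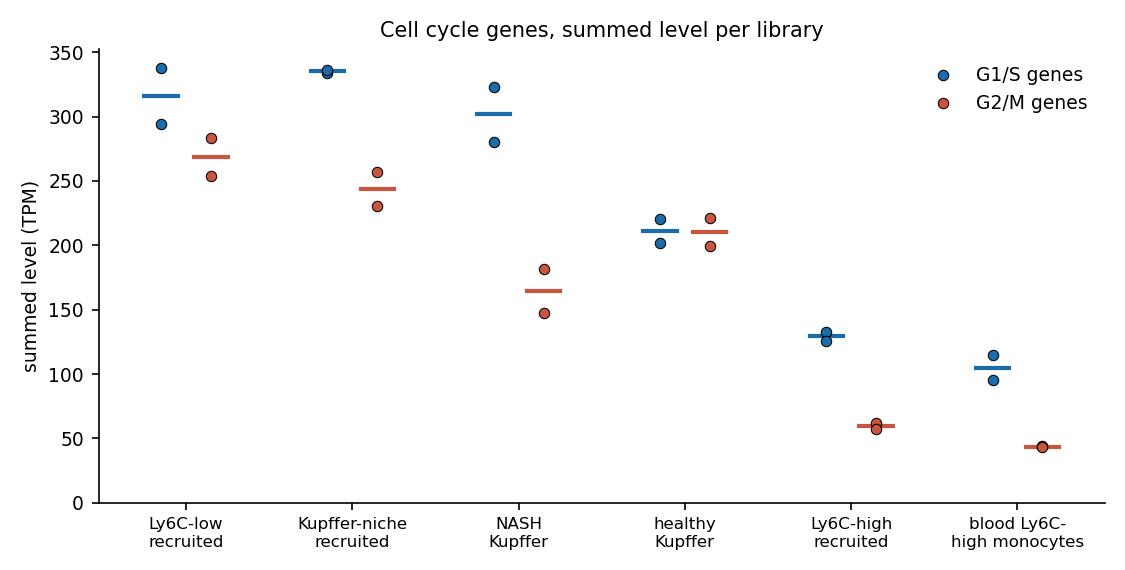
Summed level in TPM of the 19 G1/S genes (blue) and the 23 G2/M genes (red) in each library of the population set, with points for libraries and lines for group means. Blood monocytes hold 115 and 95.3 TPM of G1/S and 43.7 and 43.0 TPM of G2/M transcripts, the lowest values, and in healthy Kupffer cells the G1/S and G2/M sums lie side by side.

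The comparison of NASH with healthy Kupffer cells asks how the diet changed the resident macrophages. Some of the genes that copy DNA were called higher in NASH Kupffer cells, and no gene of mitosis was. Of 42 genes, 10 were called higher, where 11.2% of all 14407 genes tested were called higher, and 1 lower, where 9.56% were (edgeR's quasi-likelihood test, two-sided, Benjamini-Hochberg adjusted p under 0.05). All 10 were G1/S genes: 7 of 11 replication genes, 2 of 4 deoxynucleotide genes and 1 of 5 G1/S cyclins and factors. Of the 11 mitotic regulators none was called, and of the 11 spindle and chromosome genes 1 was lower. The median log2 fold change was 0.58 over the 19 G1/S genes and -0.01 over the 23 G2/M genes, beside -0.00 over all genes.

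Pcna, the sliding clamp of DNA polymerases, had 64.8 and 82.4 CPM in NASH Kupffer cells, against 33.8 and 29.9 CPM in healthy ones. Mcm5 had 53.0 and 87.2 CPM in NASH Kupffer cells, against 29.4 and 28.1 CPM in healthy ones. In both genes every NASH library lay above every healthy library. The log2 fold change was 1.21 ± 0.18 for Pcna (SE, adjusted p = 0.00115) and 1.29 ± 0.26 for Mcm5 (adjusted p = 0.00658). Among the called replication genes the change was largest for Gins2, a subunit of the GINS complex of the helicase, at 1.49 ± 0.32 (adjusted p = 0.00872), and smallest for Mcm7 at 0.55 ± 0.15 (adjusted p = 0.0261). Gins2 had 11.5 and 11.8 CPM in NASH Kupffer cells, against 5.24 and 2.98 CPM in healthy ones, and 10.1% of its exon bases are shared with Gse1 on the other strand. Rrm1 and Rrm2, the subunits of ribonucleotide reductase, rose by 0.58 ± 0.15 (adjusted p = 0.0221) and 0.56 ± 0.18 (adjusted p = 0.0491) on the log2 scale. Ccne1, cyclin E1, had 4.81 and 4.69 CPM in NASH Kupffer cells, against 1.64 and 2.01 CPM in healthy ones, a log2 fold change of 1.38 ± 0.38 (adjusted p = 0.0286).

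Kif23, a kinesin of the central spindle needed for cytokinesis, was the 1 gene called lower. It had 45.2 and 29.7 CPM in NASH Kupffer cells, against 105 and 86.0 CPM in healthy ones. Both NASH libraries lay below both healthy libraries, with a log2 fold change of -1.35 ± 0.23 (adjusted p = 0.00247). The other representatives of mitosis were not called: Mki67, a proliferation antigen, had a log2 fold change of -0.27 (adjusted p = 0.17), Top2a of -0.12 (adjusted p = 0.713) and Cdk1 of 0.23 (adjusted p = 0.468).

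The number of calls depended on single libraries: leaving out NASH replicate 2 left 3 calls and leaving out NASH replicate 1 left 8, while leaving out healthy replicate 2 left 5 and leaving out healthy replicate 1 left 7. Pcna, Mcm6 and Kif23 kept their calls in all 4 of those fits, whereas Mcm7, Rrm2 and Ccne1 kept theirs in none. With limma on the deposited TPM, 7 genes were higher and 2, Kif23 and Mki67, lower, where 6.71% of all genes were higher, 19.8% lower, and the median of all genes lay at -0.15. On the same scale the G2/M sum was 181 and 147 TPM in NASH Kupffer cells, against 222 and 199 TPM in healthy ones, and the G1/S sum was 281 and 323 TPM against 221 and 202 TPM. Markers of erythroid cells summed to 2.60 to 16.95 TPM in NASH Kupffer cells and 50.7 to 502 TPM in healthy ones, and those of hepatocytes to 74.2 to 225 TPM and 382 to 567 TPM. Markers of T and NK cells were called higher in 3 of 5 genes and summed to 10.3 to 19.4 TPM in NASH Kupffer cells and 6.16 to 7.32 TPM in healthy ones. Stellate cell markers were called higher in 2 of 5 genes, and those of sinusoidal endothelium were called lower in 4 of 5, at 95.4 to 101 TPM in NASH Kupffer cells and 156 to 170 TPM in healthy ones. The part of these cells in the result was not tested.

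Around these genes, 3 of 6 D-type cyclins and G1 kinases were called higher in NASH Kupffer cells, among them Ccnd2 at a log2 fold change of 1.07 ± 0.21 (adjusted p = 0.00642) and Ccnd1 at 0.72 ± 0.13 (adjusted p = 0.00389). Of 7 CDK inhibitors 1 was lower, Cdkn1b, which encodes p27, at -0.61 ± 0.15 (adjusted p = 0.0195). Of 14 further origin licensing and checkpoint genes 2 were higher, with Gins1 at 1.00 ± 0.31 (adjusted p = 0.0415), and of 13 pocket proteins, E2F and MuvB genes 2 were, with E2f2 at 0.95 ± 0.15 (adjusted p = 0.0019). None of 19 further mitosis genes was called.

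**Figure D2:**
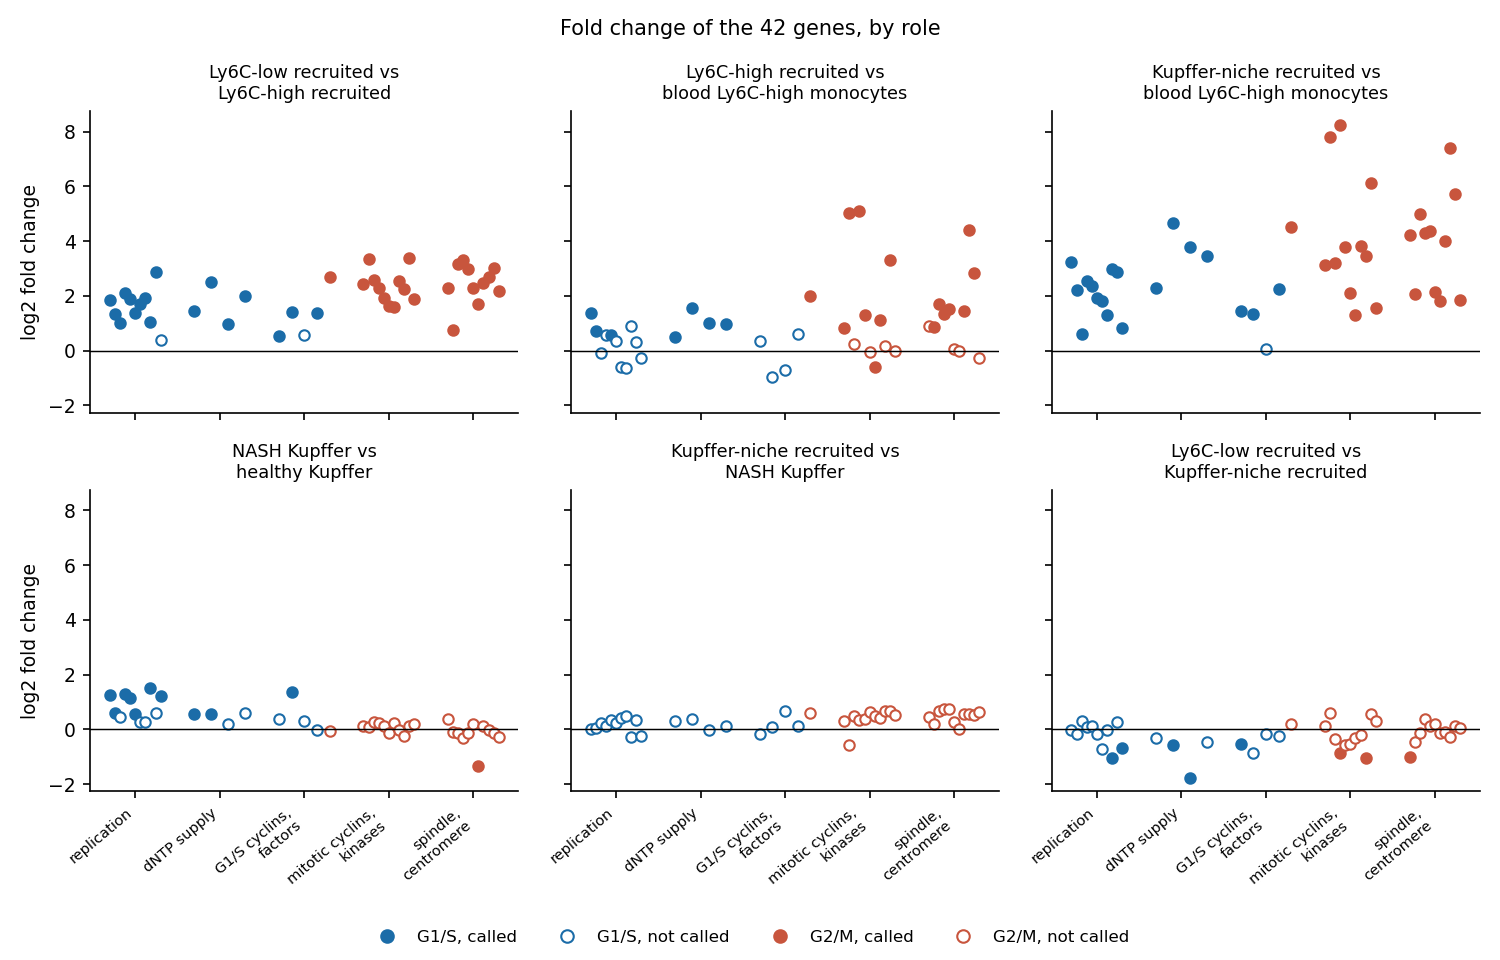
Log2 fold change (vertical axis) of each of the 42 genes, in columns by role, in the comparisons of the population set, with filled points for called genes. In NASH against healthy Kupffer cells the called points above 0 lie among replication, deoxynucleotide and G1/S genes and the only called point below 0 is Kif23 at -1.35.

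The comparison of Kupffer-niche recruited macrophages with NASH Kupffer cells sets newcomers against residents of the same niche and diet. No gene of the 42 was called by edgeR's quasi-likelihood test, where 0.333% of all genes were called higher and 0.201% lower, and 12 had an unadjusted p under 0.05. By limma on TPM the count was also 0, and it was 1 with DESeq2. The smallest p belonged to Mki67, with 142 and 142 CPM in Kupffer-niche recruited macrophages, against 95.5 and 86.5 CPM in NASH Kupffer cells, a log2 fold change of 0.64 ± 0.13 (adjusted p = 0.0647). Next came Cenpe, the centromere kinesin, with 26.0 and 25.3 CPM in Kupffer-niche recruited macrophages, against 15.9 and 16.1 CPM in NASH Kupffer cells, a log2 fold change of 0.68 ± 0.16 (adjusted p = 0.101). Of the 42 genes 31 lay above NASH Kupffer cells in both recruited libraries, 21 of them G2/M genes, and 3 lay below. Such a count was not made over all genes, so it has no background to be read against. Ccnd2, with a log2 fold change of 1.15 ± 0.20 (adjusted p = 0.0351), and E2f2, with 0.93 ± 0.14 (adjusted p = 0.0155), were the called genes of the 59 in the further cell cycle lists.

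Ly6C-low recruited macrophages were then set against Kupffer-niche recruited macrophages, both recruited and on the NASH diet. None of the 42 genes was higher and 8 were lower in Ly6C-low macrophages, where 15.3% of all genes were higher and 18.1% lower. Tk1, the thymidine kinase of S phase, had 20.0 and 18.2 CPM in Ly6C-low macrophages, against 70.9 and 58.6 CPM in Kupffer-niche macrophages. The groups did not overlap, and the log2 fold change was -1.76 ± 0.20 (adjusted p = 7.45e-05). Ube2c, the ubiquitin-conjugating enzyme of the anaphase-promoting complex, had a log2 fold change of -1.05 ± 0.26 (adjusted p = 0.00987), Gins2 of -1.04 ± 0.31 (adjusted p = 0.0236), Birc5, or survivin, of -1.02 ± 0.26 (adjusted p = 0.0117) and Cdk1 of -0.86 ± 0.21 (adjusted p = 0.00945). Pcna, Rrm2 and E2f1, the factor that turns on replication genes, were lower by 0.54 to 0.69 on the log2 scale. Mki67, at 0.07 ± 0.13, and Top2a, at 0.14 ± 0.20, were not called.

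Without Kupffer-niche replicate 1 only Tk1 was called, without Ly6C-low replicate 2 there were 2 calls, and without Kupffer-niche replicate 2 there were 5; Tk1 kept its call in all 4 such fits. With limma on log2(TPM + 1) 6 genes were higher and 4 lower, where 32.3% of all genes were higher, 10.4% lower, and the median of all genes was 0.22. The fold changes moved with exon length, with a Spearman rho of 0.34 across all 14407 genes and 0.53 across the 42. That rho was -0.22 and -0.30 for NASH against healthy Kupffer cells. It was 0.11 and 0.40 for Kupffer-niche against NASH Kupffer cells, and 0.19 and 0.37 for Ly6C-low against Ly6C-high macrophages. Against blood monocytes it was 0.10 and 0.24 for Ly6C-high and -0.00 and 0.21 for Kupffer-niche macrophages. Genes are not independent replicates, and the part of length in these comparisons was not tested. Dendritic cell markers, 6 genes, summed to 251 to 276 TPM in Ly6C-low macrophages and 5.49 to 5.70 TPM in Kupffer-niche macrophages. Sinusoidal endothelial markers were called higher in 4 of 5 genes and lower in 1, and Kupffer cell markers lower in 4 of 5. Macrophage markers were called lower in 4 of 5 genes, neutrophil markers lower in 3 of 4 tested and B cell markers higher in 2 of 5. The part of these cells was not tested.

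The further lists included genes called in the other direction. E2f2 had 69.1 ± 4.5 CPM in Ly6C-low macrophages and 16.7 ± 0.12 CPM in Kupffer-niche macrophages (SD, n = 2 each), and Ccnd2 had 175 ± 18 CPM and 46.5 ± 0.57 CPM. Their log2 fold changes were 2.04 ± 0.13 (adjusted p = 1.28e-06) and 1.91 ± 0.20 (adjusted p = 3.81e-05), and Ccnd1 and Ccnd3 were higher as well, at 0.95 ± 0.13 (adjusted p = 0.00028) and 1.07 ± 0.17 (adjusted p = 0.000864). Cenpw, a centromere protein, was lower at -2.89 ± 0.86 (adjusted p = 0.0237). In all, 6 of 13 pocket protein, E2F and MuvB genes were higher, and 3 of 19 mitosis genes and 2 of 14 licensing genes were lower.

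Nearly all members differed between Ly6C-low and Ly6C-high recruited macrophages. Of the 42 genes 40 were called higher in Ly6C-low macrophages and none lower, where 11.6% of all genes were called higher and 14% lower. All 42 had both Ly6C-low libraries above both Ly6C-high libraries, a count that was not made over all genes. The median fold was 3.87. By phase, 17 of 19 G1/S genes were called with a median log2 fold change of 1.42, and 23 of 23 G2/M genes with a median of 2.43.

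Within each role the span was wide. Among called replication genes the log2 fold change ran between 2.87 ± 0.40 for Prim1, the primase (adjusted p = 0.000595), and 0.99 ± 0.17 for Mcm4 (adjusted p = 0.00166). Among deoxynucleotide genes it ran between 2.52 ± 0.20 for Rrm2 (adjusted p = 1.67e-05) and 0.99 ± 0.21 for Tk1 (adjusted p = 0.00608). Foxm1, with 42.1 and 31.4 CPM in Ly6C-low macrophages against 6.32 and 5.07 CPM in Ly6C-high ones, reached 2.69 ± 0.22 (adjusted p = 1.77e-05), and E2f1, with 27.3 and 24.7 CPM against 15.1 and 20.5 CPM, 0.55 ± 0.18 (adjusted p = 0.0446). Among mitotic regulators Bub1, a spindle checkpoint kinase, had 14.6 and 11.2 CPM in Ly6C-low macrophages, against 1.08 and 1.40 CPM in Ly6C-high ones, a log2 fold change of 3.38 ± 0.30 (adjusted p = 3.27e-05). Aurkb, the kinase of the chromosomal passenger complex, had the smallest called change there at 1.58 ± 0.22 (adjusted p = 0.000511). Ccnb2, chosen here for its promoter above, had 18.7 and 16.6 CPM in Ly6C-low macrophages, against 3.16 and 2.68 CPM in Ly6C-high ones (2.60 ± 0.35, adjusted p = 0.000495), and Mcm5 had 93.1 and 69.1 CPM against 19.2 and 18.7 CPM (2.10 ± 0.26, adjusted p = 0.00031). Among spindle and centromere genes the ends were Cenpf at 3.30 ± 0.38 (adjusted p = 0.000154) and Cenpa, the centromeric histone, at 0.77 ± 0.22 (adjusted p = 0.0242).

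The genes not called were Pcna, with 44.7 and 32.3 CPM in Ly6C-low macrophages against 30.6 and 28.0 CPM in Ly6C-high ones (adjusted p = 0.125), and Ccne2, cyclin E2, with 1.87 and 2.48 CPM against 1.01 and 1.86 CPM (adjusted p = 0.359). Of the further lists 16 of 19 mitosis genes and 8 of 14 licensing genes were higher and none lower. The largest changes were in Nuf2, a kinetochore subunit, at 4.46 ± 0.60 (adjusted p = 0.000449), Hmmr, a spindle protein, at 3.34 ± 0.45 (adjusted p = 0.000472), and Kif4, a chromosome kinesin, at 3.29 ± 0.29 (adjusted p = 2.95e-05). Ccnd1 was higher at 2.95 ± 0.14 (adjusted p = 5.91e-07) and Ccnd2 at 1.90 ± 0.20 (adjusted p = 8.63e-05), while Ccnd3 was lower at -0.88 ± 0.17 (adjusted p = 0.00413), as was the inhibitor Cdkn2d, p19INK4d, at -1.32 ± 0.23 (adjusted p = 0.00204). Hepatocyte markers, 5 genes, summed to 113 to 257 TPM in Ly6C-low macrophages and 1047 to 2734 TPM in Ly6C-high macrophages, and dendritic cell markers to 251 to 276 TPM and 45.6 to 57.3 TPM; their part in the result was not tested.

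**Figure D3:**
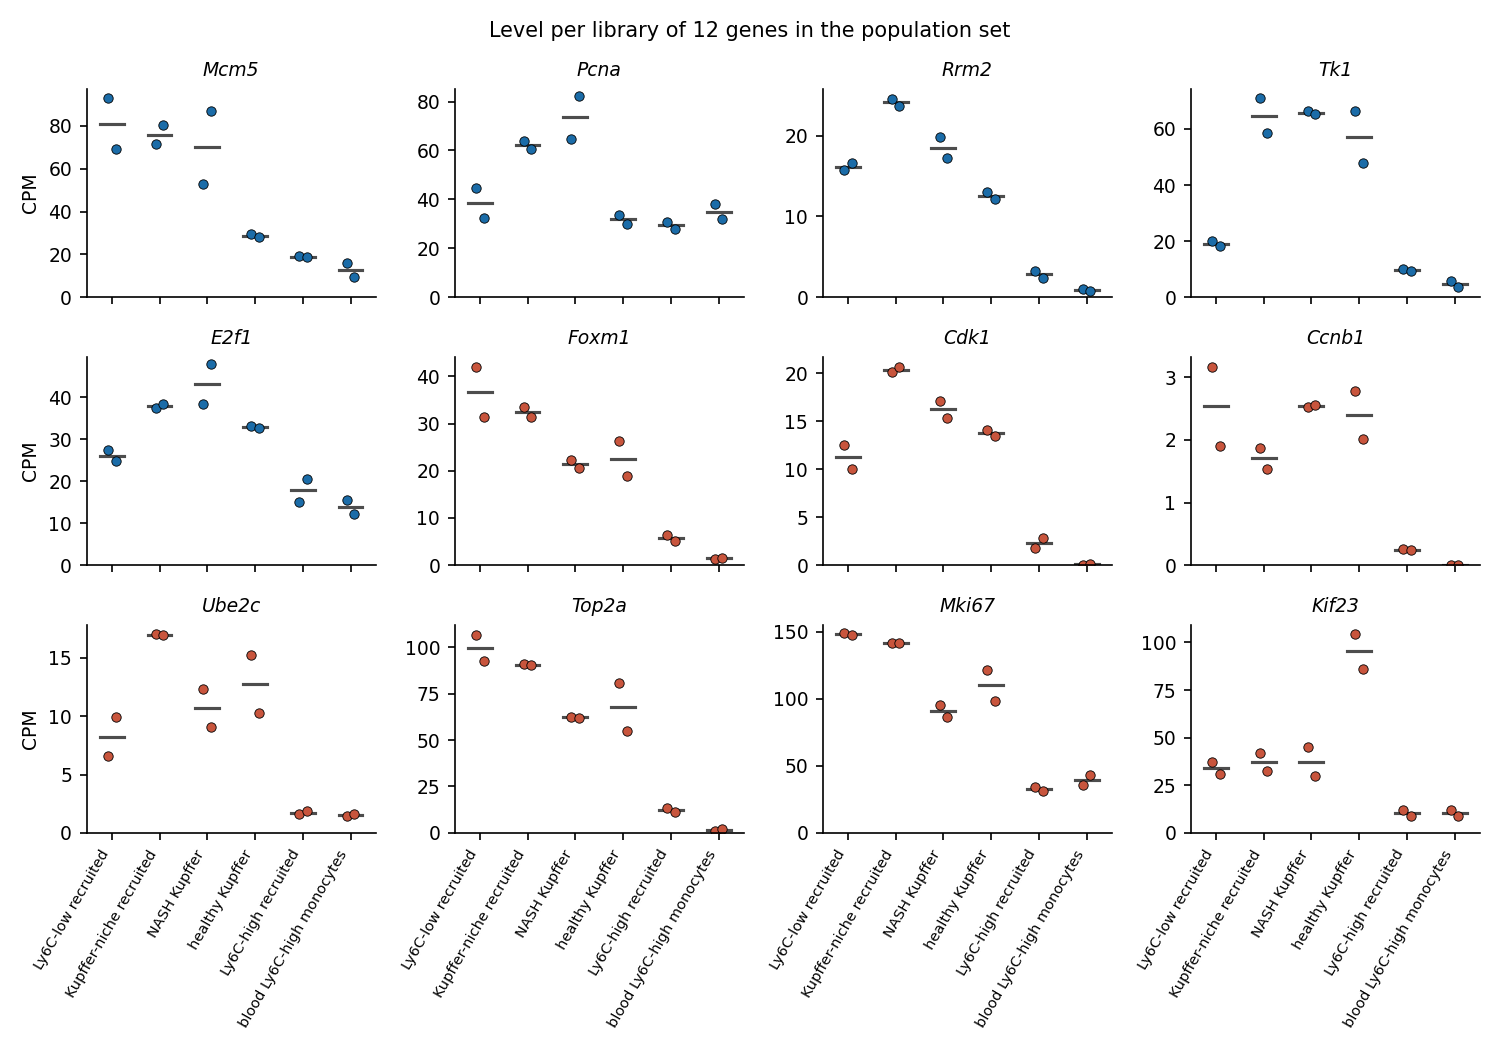
Level in CPM of 12 of the genes in every library of the population set, with points for libraries. Foxm1 sits at 31.4 to 42.1 CPM in Ly6C-low macrophages and at 5.07 to 6.32 CPM in Ly6C-high ones, and Pcna at 32.3 to 44.7 CPM in Ly6C-low macrophages and at 28.0 to 30.6 CPM in Ly6C-high ones.

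Ly6C-high recruited macrophages against blood Ly6C-high monocytes sets cells in the liver against those still in the circulation. Of the 42 genes 21 were higher and 1 lower in the recruited macrophages, where 27.3% of all genes were higher and 21.3% lower. The called share was 4 of 4 for deoxynucleotide genes, 7 of 11 for spindle and chromosome genes, 6 of 11 for mitotic regulators, 3 of 11 for replication genes and 1 of 5 for G1/S cyclins and factors. Cdk1 had 77 counts over the recruited libraries and 2 over the blood libraries, a ratio of 39.0 with a counting interval of 10.4 to 327.6 at 95%. Ccnb1, cyclin B1, had 8 counts in the recruited libraries and 0 in blood, which made it at least 2.70-fold higher when set against a floor of 3 counts over the group.

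Top2a had 13.5 and 11.3 CPM in Ly6C-high recruited macrophages, against 1.28 and 2.36 CPM in blood monocytes, a log2 fold change of 2.84 ± 0.27 (adjusted p = 1.40e-05). Tpx2, which activates Aurora A on the spindle, had 3.73 and 3.03 CPM in the recruited macrophages, against 0.0474 and 0.326 CPM in blood, a log2 fold change of 4.40 ± 0.51 (adjusted p = 5.31e-05). Foxm1 was higher at 2.00 ± 0.26 (adjusted p = 0.000127), Rrm2 at 1.55 ± 0.25 (adjusted p = 0.000451) and Mcm2 at 1.38 ± 0.26 (adjusted p = 0.00135). The smallest called changes by role were Cenpa at 0.85 ± 0.23 (adjusted p = 0.00981), Mcm6 at 0.59 ± 0.18 (adjusted p = 0.0205) and Rrm1 at 0.49 ± 0.16 (adjusted p = 0.0258).

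Mki67, by contrast with Top2a, was not called. It had 34.0 and 31.2 CPM in Ly6C-high recruited macrophages, against 35.4 and 43.3 CPM in blood, a log2 fold change of -0.27 ± 0.14 (adjusted p = 0.126). Pcna, at -0.26 ± 0.18 (adjusted p = 0.258), and Ccne1, at -0.95 ± 0.41 (adjusted p = 0.076), were not called either. Aurkb was called lower, with 6.89 and 8.04 CPM in the recruited macrophages against 9.72 and 12.8 CPM in blood, at -0.58 ± 0.22 (adjusted p = 0.0482), and lost the call with DESeq2, with its size factors in edgeR, with limma on TPM, with only the 2 groups, and without blood replicate 2 or either Ly6C-high library. Without Ly6C-high replicate 1 the count of called genes was 14. Ccnd2 was higher at 4.19 ± 0.25 (adjusted p = 4.71e-07) and Ccnd1 at 2.99 ± 0.16 (adjusted p = 2.16e-07), while Ccnd3, another D-type cyclin, was lower at -1.33 ± 0.17 (adjusted p = 0.000106). Of 7 CDK inhibitors 3 were higher, with Cdkn1a, p21, at 1.33 ± 0.24 (adjusted p = 0.000921), and 2 lower, Cdkn2d at -1.77 ± 0.22 (adjusted p = 8.52e-05) and Cdkn1b at -0.92 ± 0.15 (adjusted p = 0.000507). The 5 hepatocyte markers, at 1047 to 2734 TPM in Ly6C-high recruited macrophages, were all at 0 TPM in blood, as were the 5 stellate cell markers. Markers of sinusoidal endothelium and of B cells were called higher in 5 of 5 genes each, and erythroid markers were called lower in 4, at 4.45 to 4.93 TPM against 390 to 1736 TPM in blood. The part of admixed cells was not tested.

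Kupffer-niche recruited macrophages against blood monocytes, which share the blood libraries with the comparison above, had 41 of the 42 genes higher and none lower, where 34% of all genes were higher and 26.5% lower. The median log2 fold change was 2.94, beside 0.09 over all genes. Cdk1 had 673 counts over the Kupffer-niche libraries and 2 over the blood libraries, a ratio of 339.6 with a counting interval of 93.6 to 2809.8. Ccnb1 had 57 counts against 0, at least 19.2-fold higher. Top2a had 90.8 and 90.3 CPM in Kupffer-niche macrophages, against 1.28 and 2.36 CPM in blood, a log2 fold change of 5.71 ± 0.27 (adjusted p = 2.16e-08).

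By role the called changes ran between 3.24 ± 0.27 for Mcm2 (adjusted p = 1.43e-06) and 0.60 ± 0.17 for Mcm4 (adjusted p = 0.00886) among replication genes, and between 4.66 ± 0.23 for Rrm2 (adjusted p = 2.81e-08) and 2.28 ± 0.16 for Rrm1 (adjusted p = 4.13e-07) among deoxynucleotide genes. Foxm1 reached 4.51 ± 0.25 (adjusted p = 7.83e-08) and Ccne1 1.33 ± 0.37 (adjusted p = 0.00943). Aurkb was higher at 1.30 ± 0.21 (adjusted p = 0.00031) and Kif23 at 1.82 ± 0.24 (adjusted p = 6.06e-05). Ccne2 alone was not called, with 2.76 and 2.14 CPM in Kupffer-niche macrophages against 1.71 and 3.09 CPM in blood. Of the further genes 14 of 14 licensing genes and 16 of 19 mitosis genes were higher and 1 mitosis gene lower. With limma on log2(TPM + 1), 40 of the 42 genes were higher and none lower, where 24.1% of all genes were higher, 35.6% lower, and the median of all genes was -0.10. Markers of hepatocytes, stellate cells, sinusoidal endothelium and B cells were each called higher in 5 of 5 genes in Kupffer-niche macrophages. Hepatocyte markers summed to 54.8 to 238 TPM and stellate cell markers to 27.3 to 86.2 TPM there, against 0 TPM in blood. Erythroid markers were called lower in 3 genes, at 3.70 to 10.8 TPM in Kupffer-niche macrophages and 390 to 1736 TPM in blood. The part of these cells in the result was not tested.

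The D-type cyclins split between tissue and blood. Ccnd1 had 162 ± 6.8 CPM in Kupffer-niche macrophages and 5.07 ± 0.20 CPM in blood monocytes, and Ccnd2 had 46.5 ± 0.57 CPM and 2.70 ± 1.1 CPM (SD, n = 2 each). Ccnd3 went the other way, with 43.2 ± 3.8 CPM in Kupffer-niche macrophages and 418 ± 20 CPM in blood (log2 fold change -3.28 ± 0.19, adjusted p = 8.03e-08). Cdkn2d likewise had 7.87 ± 0.81 CPM in Kupffer-niche macrophages and 69.2 ± 20 CPM in blood (log2 fold change -3.14 ± 0.24, adjusted p = 7.57e-07).

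The time course asks when Kupffer cells changed on the diet; every week was set against the same 3 libraries of week 0, so the comparisons share them. Few of the 42 genes were called at any week. In number, 1 gene was higher and 0 lower at week 1, where 9.42% of all 14552 genes tested were higher and 6.56% lower. At week 4 the counts were 0 and 1 (5.55% and 2.99% of all genes), at week 10 they were 0 and 2 (11.5% and 7.63%), at week 20 they were 1 and 4 (18.2% and 16.6%) and at week 30 they were 1 and 2 (15.5% and 15%). The median log2 fold change of the 42 genes was -0.39, -0.30, -0.35, -0.41 and -0.07 at weeks 1, 4, 10, 20 and 30, beside medians over all genes that round to 0.00. The 19 G1/S genes had medians of -0.34, -0.55, -0.74, -0.39 and -0.23 at those weeks and the 23 G2/M genes of -0.48, -0.07, -0.07, -0.42 and -0.05. At week 10 all 19 G1/S genes had a negative log2 fold change, 2 of them called, a count that was not made over all genes. The G1/S sum was 296, 302 and 155 TPM at week 10 and 370, 459 and 248 TPM at week 0, which overlap. In the population set, fitted on its own, the G1/S median of NASH against healthy Kupffer cells was 0.58. A slope on log2 weeks over the 14 diet libraries called none of the 42, where 10.7% of genes had a rising slope and 11.5% a falling slope, with 1 unadjusted p under 0.05, that of Plk1, a mitotic kinase, at 0.20 ± 0.08 per doubling of time (adjusted p = 0.0843). DESeq2 and limma on TPM also called none in that slope, and the second smallest p was that of Kif23, at -0.14 ± 0.07 per doubling (adjusted p = 0.155).

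Libraries of the same week differed widely. The sum over the 42 genes was 616, 796 and 387 TPM at week 0, 323 and 540 TPM at week 1, 504 and 358 TPM at week 4, 552, 584 and 248 TPM at week 10, 481, 272 and 451 TPM at week 20, and 461, 406, 523 and 429 TPM at week 30. Top2a, for example, had 77.9, 85.4 and 13.4 CPM in the 3 libraries of week 10. Every week on the diet overlapped week 0 in the summed level.

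Kif23 was called lower at weeks 20 and 30. It had 32.9, 25.2 and 28.2 CPM at week 20 and 27.7, 41.5, 35.0 and 23.4 CPM at week 30, against 78.0, 85.6 and 62.7 CPM at week 0. No library of weeks 20 and 30 reached those of week 0. Kif23 was not called at weeks 1, 4 and 10. Both week 1 libraries also lay below every week 0 library, and weeks 4 and 10 overlapped week 0, so the calls do not date the fall. The log2 fold change was -1.39 ± 0.26 at week 20 (adjusted p = 0.000877) and -1.24 ± 0.24 at week 30 (adjusted p = 0.00109). These libraries are other libraries than the NASH and healthy Kupffer cells above, where Kif23 was lower too. Both calls held under every alternative run here, those that leave out a library included.

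Ccne2 had 4.31 and 3.92 CPM at week 1, 1.95 and 1.14 CPM at week 4, 4.19, 6.28 and 2.78 CPM at week 10, 1.27, 0.370 and 1.71 CPM at week 20 and 2.33, 1.63, 2.36 and 1.90 CPM at week 30, against 7.05, 8.90 and 6.13 CPM at week 0. Only week 10 overlapped week 0. It was called lower at week 4 (log2 fold change -2.25, adjusted p = 0.0134), week 20 (-2.75, adjusted p = 0.000271) and week 30 (-1.84, adjusted p = 0.00205); without either week 4 library the call at week 4 was lost. Ccne2 shares 17.4% of its exon bases with Ints8 on the other strand, and the strand setting of the counting is not given in the sources used here.

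Pcna had 53.8 and 80.3 CPM at week 1, 59.3, 41.7 and 68.2 CPM at week 20 and 57.0, 56.6, 66.0 and 58.4 CPM at week 30, against 30.9, 47.1 and 39.3 CPM at week 0. Weeks 1 and 30 lay above week 0, week 20 overlapped it, and weeks 4 (43.5 and 38.5 CPM) and 10 (40.1, 42.8 and 34.1 CPM) lay within it. The log2 fold change was 0.78 at week 1 (adjusted p = 0.0186), 0.53 at week 20 (adjusted p = 0.0421) and 0.61 at week 30 (adjusted p = 0.0178). The calls were lost without week 0 replicate 1 at all 3 weeks, without week 1 replicate 2 at week 1, without week 0 replicate 3 at weeks 20 and 30, and without week 20 replicate 1 or 3 at week 20. None of them was made with limma on TPM, where no gene of the 42 was higher at any week and the median of all genes lay at -0.17 at week 1, -0.12 at week 4, -0.18 at week 20 and -0.23 at week 30.

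Replication genes were called lower at single weeks. Mcm2 had 27.3, 25.2 and 11.7 CPM at week 10, against 53.8, 59.3 and 32.4 CPM at week 0, a log2 fold change of -1.18 (adjusted p = 0.0132), and Mcm3 was lower by 0.79 (adjusted p = 0.0247). In NASH against healthy Kupffer cells of the population set both were called higher, Mcm2 at 1.25 ± 0.24 (adjusted p = 0.00514) and Mcm3 at 0.59 ± 0.13 (adjusted p = 0.00925). At week 20 Prim1 was lower, with 4.82, 0.904 and 4.41 CPM against 9.31, 14.1 and 7.28 CPM at week 0 (log2 fold change -1.62, adjusted p = 0.0198), as was Cdc6, a helicase loader, with 3.94, 1.68 and 3.16 CPM against 6.73, 9.89 and 5.03 CPM (-1.31, adjusted p = 0.0232). The number of called genes at week 1 was 0 without week 0 replicate 1 and 2 without week 0 replicate 3. At week 10 it was 0 without week 0 replicate 2 and 1 without week 0 replicate 1 or week 10 replicate 3, and at week 20 it was 3 without week 0 replicate 2 or week 20 replicate 2. With limma on log2(TPM + 1), 8 genes were lower at week 20, where 29.6% of all genes were, and 5 at week 30, where 32.2% were. Hepatocyte markers summed to 1737 to 2400 TPM at week 1, 884 to 1246 TPM at week 4, 389 to 2004 TPM at week 10, 91.4 to 511 TPM at week 20 and 139 to 519 TPM at week 30, against 26.2 to 99.8 TPM at week 0. Stellate cell markers were called higher in 2, 2, 3, 4 and 4 of 5 genes at weeks 1, 4, 10, 20 and 30, and sinusoidal endothelial markers were called lower in 4 of 5 at weeks 1, 20 and 30. The part of these cells was not tested.

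**Figure D4:**
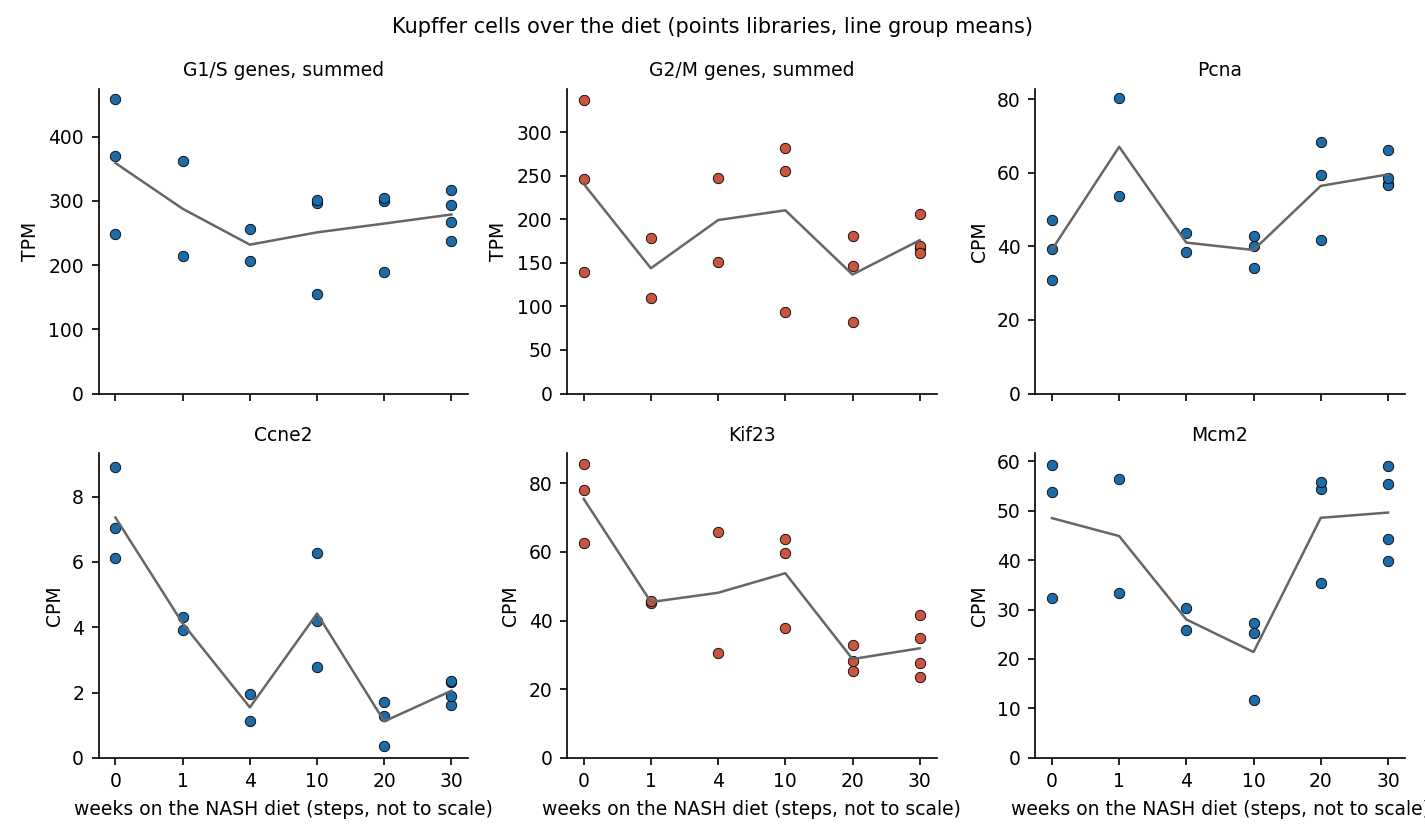
Summed G1/S and G2/M levels in TPM and levels of Pcna, Ccne2, Kif23 and Mcm2 in CPM, in Kupffer cells by weeks on the NASH diet (equal steps), with points for libraries and a line through group means. Kif23 lies at 62.7 to 85.6 CPM at week 0 and at 23.4 to 41.5 CPM at weeks 20 and 30, whereas the summed levels of the libraries overlap at all weeks.

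Of 7 CDK inhibitors, proteins that hold the cycle, 3 were called higher at week 10, at week 20 and at week 30, and 1 was called lower at week 1 and at week 20. Cdkn2a, the locus of p16INK4a and p19ARF, had 4.55 ± 0.67 CPM at week 10 (SD, n = 3), 5.42 ± 4.0 CPM at week 20 (n = 3) and 5.13 ± 5.1 CPM at week 30 (n = 4), against 0.738 ± 0.43 CPM at week 0 (n = 3). It was called higher at each of those weeks (log2 fold change 2.63, 2.88 and 2.80 with adjusted p of 0.0291, 0.0108 and 0.011), with week 30 overlapping week 0. Cdkn1a had 51.3 ± 7.7 CPM at week 10, 53.9 ± 18 CPM at week 20 and 50.6 ± 5.2 CPM at week 30, against 24.8 ± 8.3 CPM at week 0, and was called higher at each (adjusted p of 0.0131, 0.00453 and 0.0059). Cdkn2b, p15, was called higher at weeks 20 and 30 (log2 fold change 1.65 and 1.49). Cdkn1b was called lower at week 1 (-0.78) and week 20 (-1.09) and higher at week 10 (0.71). Ccnd3 was lower at week 20 (-0.78 ± 0.17, adjusted p = 0.00257) and week 30 (-0.66 ± 0.16, adjusted p = 0.005), and Ccnd1 at week 30 (-1.01 ± 0.23, adjusted p = 0.00355). Along the slope on log2 weeks Cdkn2a and Cdkn1a were called rising and Ccnd3 falling.

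In recruited macrophages from mice with floxed LXRa and LXRb, the libraries labelled Cre-positive were set against those labelled Cre-negative. Of the 42 genes 41 were tested, Ccne1 being too low, and none was called by edgeR's quasi-likelihood test, DESeq2 or limma, where 0.174% of all 11480 genes were called higher and 0.0348% lower. The summed level was 483, 428 and 544 TPM in Cre-positive libraries, against 372, 628 and 624 TPM in Cre-negative ones, which overlap. Only Kif23 had an unadjusted p under 0.05, with 42.2, 35.2 and 49.3 CPM in Cre-positive libraries against 54.6, 97.5 and 78.3 CPM in Cre-negative ones, a log2 fold change of -0.87 ± 0.25 (unadjusted p = 0.006 by edgeR, adjusted p = 0.244). The second smallest p was that of Cdk1, with 6.15, 5.00 and 4.57 CPM against 5.64, 9.04 and 12.6 CPM, at -0.81 ± 0.44 (adjusted p = 0.725). These libraries had 2319382 to 5086239 counts, the lowest range of the series, and none of the further cell cycle genes was called.

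In whole liver after 4 weeks of CDAHFD, the libraries labelled DTR-positive were set against those labelled DTR-negative. Clec4f itself did not follow the label. It ran between 3.37 and 140 CPM in DTR-positive livers, against 1.37 to 6.05 CPM in 4 of the 10 DTR-negative livers and 27.3 to 118 CPM in the other 6. The livers are therefore named by their labels alone. Of the 42 genes 38 passed the filter on low counts, Cdc6, Cdc45, Ccne1 and Mybl2 not, and none was called, where 0% of 12682 genes were called in either direction. DESeq2 and limma also called none of the 42, and 2 had an unadjusted p under 0.05 by edgeR. Gins2 had a lowest, median and highest level of 0.469, 1.96 and 3.04 CPM in DTR-positive livers, against 0.662, 0.996 and 2.05 CPM in DTR-negative livers, a log2 fold change of 0.65 ± 0.26 (adjusted p = 1). Kif23 had 1.69, 3.29 and 5.62 CPM in DTR-positive livers, against 1.85, 2.56 and 3.31 CPM in DTR-negative livers, a log2 fold change of 0.40 ± 0.17 (adjusted p = 1). Both ranges overlap.

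Livers within each label differed widely in their mitotic transcripts. The summed G2/M level ran between 19.1 TPM in DTR-positive replicate 7 and 131 TPM in DTR-positive replicate 11, and between 27.9 and 107 TPM among DTR-negative livers, whereas the G1/S sum spanned 36.4 to 75.2 TPM over all 22. The G2/M genes varied together from liver to liver. Over 253 pairs of G2/M genes the median Spearman rho across the 22 livers was 0.80, with 249 pairs above 0.5. Such a count was not made over pairs of all genes, so it has no background beyond the G1/S and mixed pairs. Whether the G2/M genes varied together more than other genes of these livers was not tested. Over 105 pairs of G1/S genes the median rho was 0.19, with 16 pairs above 0.5, and over 345 mixed pairs it was 0.39. As a sum, the G1/S level rose with the G2/M sum, with a Pearson r of 0.81 and a rho of 0.71 over the 22 livers. Set against the sum of the other G2/M genes, single G2/M genes had a rho between 0.75 for Kif23 and 0.98 for Cenpa, and G1/S genes between 0.08 for Prim1 and 0.83 for Mcm6. These are descriptions over libraries that share their tissue, diet and processing.

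Markers of some cell types, but not of all, moved with the mitotic sum across livers. The 5 stellate cell markers had a Pearson r of 0.82 and a rho of 0.80 with the G2/M sum over 22 livers, the 5 macrophage markers 0.74 and 0.78, and the 5 hepatocyte markers -0.60 and -0.57, while the total count had 0.00 and 0.02. Without the 2 livers farthest from the median of the marker sum the r was 0.79 for stellate, 0.67 for macrophage and -0.50 for hepatocyte markers. DTR-positive replicates 1, 2 and 7 and DTR-negative replicate 2 had hepatocyte marker sums of 86200 to 97616 TPM. The next highest was 70417 TPM, in DTR-positive replicate 10. Their stellate marker sums were 117 to 178 TPM and their G2/M sums 19.1 to 29.0 TPM. Leaving out 2 livers keeps others of this group in, so whether the relations hold without it was not tested. Over the 22 livers the r and rho were 0.67 and 0.63 for dendritic cell, 0.52 and 0.68 for T and NK cell, and 0.60 and 0.58 for Ly6C-high monocyte markers. They were 0.31 and 0.43 for neutrophil, 0.25 and 0.43 for Kupffer cell, and -0.40 and -0.42 for erythroid markers. For B cell markers they were 0.19 and -0.00, and for sinusoidal endothelial markers 0.05 and 0.05. The part of these cells in the mitotic level was not tested.

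**Figure D5:**
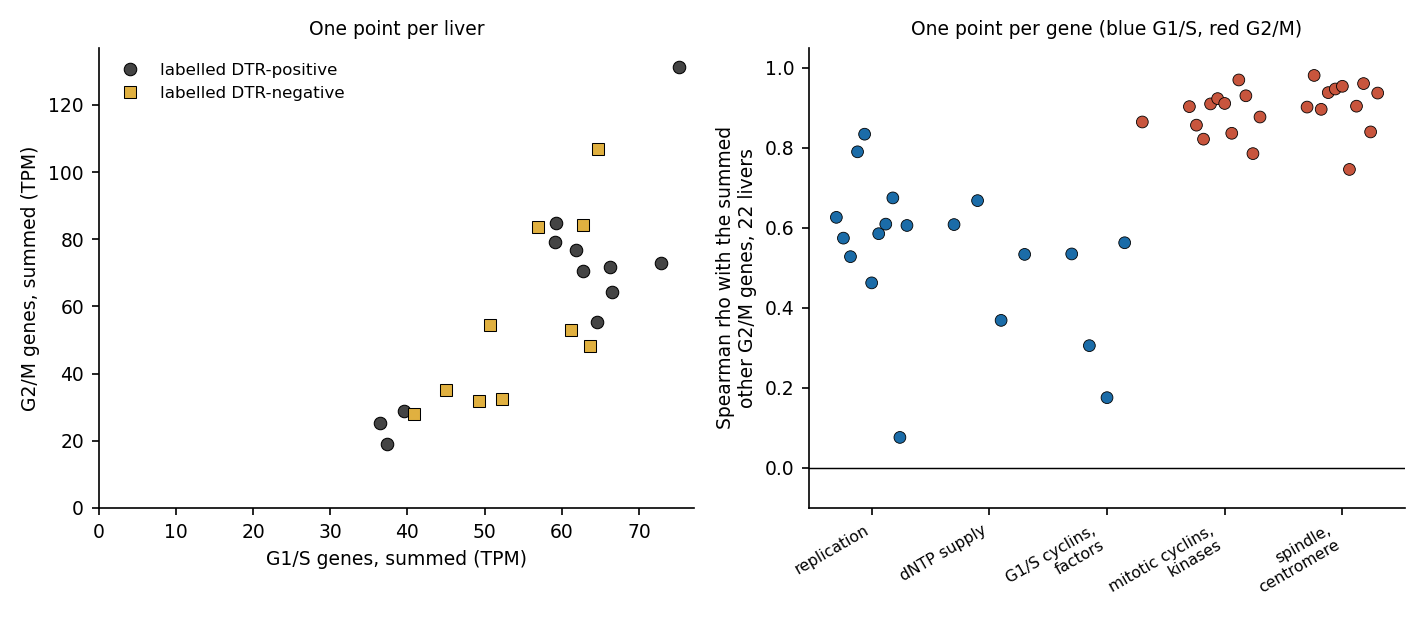
Left, summed G2/M against summed G1/S level in TPM, 1 point per liver, by label; right, for each of the 42 genes by role, Spearman rho across 22 livers with the sum of the other G2/M genes (blue G1/S, red G2/M). The labels intermix on the left, and on the right the G2/M genes lie at 0.75 to 0.98 while the G1/S genes reach down to 0.08.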

How the data were processed

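RNA was measured in 57 libraries of sorted macrophages, blood monocytes and whole liver. The authors deposited 2 tables of 40458 transcripts, raw counts and TPM, per the file headers; STAR, HOMER and DESeq2 are named in the submitters' processing notes, with versions and strand setting not given in the sources used here. Each of 24941 symbols was represented by its most counted transcript. Libraries were grouped by their labels. Each set was fitted on its own in R 4.3.3 by the quasi-likelihood test of edgeR 4.0.16 (low genes removed by filterByExpr at a minimum count of 10 and a total of 15, TMM scaling, two-sided, Benjamini-Hochberg adjustment over all genes tested, called under 0.05). The SE given with a log2 fold change was not fitted but set as its absolute value divided by the square root of the F of the test. CPM values use TMM sizes within a set and are not compared across sets. Alternatives were DESeq2 1.42.0, its size factors, no filter, limma 3.58.1 on log2(TPM + 1) and log2(TPM + 0.1), the longest transcript, only the 2 groups compared, a replicate block and leaving out each library. The script was tested on simulated counts. Replicates of a group differed by more than sampling noise, with a chi-square of 5.3 to 85.7 per degree of freedom over 140 pairs. Floors of 3 counts and 95% intervals, exact for the 2 summed counts, cover counting error only. Members and gene lists were chosen with earlier results of these data known. Named genes were the called genes with the largest and smallest change of each role, up to 10 per comparison, with 12 fixed representatives; where none was called, the 2 with the smallest p; and of the further lists the 3 largest called, D-type cyclins and CDK inhibitors.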

Additional observations from a re-analysis of the deposited data

Results flagged for a closer look

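In Kupffer cells at week 30 of the diet, where 4 libraries allow a test for a single library far from the others, replicate 3 stood high in 3 of 45 quantities examined. Bub1 had 9.23 CPM in that library, and the nearest of the other week 30 libraries had 6.60 CPM. Nusap1, a spindle protein, had 10.9 CPM there, with the nearest library at 7.23 CPM. The summed level of the 23 G2/M genes was 206.5 TPM, with the nearest library at 168.9 TPM. For the sum the gap was 0.831 of the range, against a critical value of 0.829. Chance flags about 1 in 20 groups for each quantity. The 45 quantities are not independent, since the G2/M sum holds Bub1 and Nusap1, and whether replicate 3 differs beyond chance was not tested. In the 10 DTR-negative livers 0 of 45 quantities were flagged.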

How the results depend on the processing

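Of the genes refitted under these settings none that edgeR called changed sign, but the split of calls turned in 2 comparisons with limma on TPM. For Ly6C-low against Kupffer-niche macrophages it was 6 higher and 4 lower at a pseudocount of 1 and 3 and 2 at 0.1, with a median log2 fold change of 0.13 and 0.15, where edgeR called 0 higher and 8 lower with a median of -0.18. At week 1 it was 0 higher and 3 lower at 1 and 0 and 2 at 0.1, and 0 and 1 with only the 2 groups, where edgeR called 1 higher and 0 lower. Counts of called genes among the 42 that moved past 1.5 times under another setting were 1 for Kupffer-niche recruited against NASH Kupffer cells with DESeq2, with no filter and with the replicate block; 5 for Ly6C-low against Kupffer-niche macrophages with limma on log2(TPM + 0.1); 2, 3 and 2 at week 1 with DESeq2 and limma at a pseudocount of 1 and 0.1; 1 at week 10 with only the 2 groups; 8, 8 and 3 at week 20 with limma at 1 and 0.1 and with only the 2 groups; 5 at week 30 with limma at 1; and 1 for the slope taken on weeks. The cause was not tested. Leaving out 1 library at a time gave 3 to 8 calls for NASH against healthy Kupffer cells, 0 to 0 for Kupffer-niche against NASH Kupffer cells, 1 to 6 for Ly6C-low against Kupffer-niche macrophages, 34 to 39 for Ly6C-low against Ly6C-high, 14 to 21 for Ly6C-high against blood, 39 to 41 for Kupffer-niche against blood, 0 to 2, 0 to 1, 0 to 3, 3 to 6 and 2 to 4 at weeks 1, 4, 10, 20 and 30, 0 to 1 for the slope and 0 to 0 for the LXR set; a group left with 1 library is assumed to vary like the others. The labels do not say whether a shared replicate number is a shared animal. Deviations of same-numbered libraries correlated at 0.57, 0.52 and 0.43 in the 3 comparisons among macrophages of NASH livers, at 0.13 for NASH against healthy Kupffer cells and at -0.11 and -0.01 against blood; with 2 libraries a group this does not settle a pairing, and the replicate block moved no other count past 1.5 times. For single genes, the settings other than leaving out a library left 1939 values with the same direction and side of the threshold. Under those settings 54 values lost the call, 18 gained one, and 27 changed sign with no call in either fit. Fits without a library are not in these counts. Genes of few counts, such as Ccnb1 and Ccne2, and the LXR set, at 2319382 to 5086239 counts, are limited by depth.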
